A study of Mus musculus with 18 samples.

Results

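The acetylated RNA peaks that the deposited peak table classes as exon were taken as all rows with that class, 341 of 1358 peaks (25.1%). They lay in 296 Ensembl genes with 293 names, and 154 of the 341 peaks (45.2%) were named for a gene that is not protein-coding. The peaks came from mouse TC1 cells, labelled as a fibrosarcoma line, in which RNA fragments holding N4-acetylcytidine were precipitated with an antibody and sequenced beside the input RNA (acRIP-seq). Peaks rested on 1 precipitate and 1 input library for each genotype, unedited cells (WT) and cells edited with a guide against Nat10 (sgNAT10), so their values have no replicate check. The genes that name the peaks, called hosts here, were followed in mRNA sequencing and in ribosome footprint sequencing (Ribo-seq) of 2 WT and 2 sgNAT10 libraries each, and in a separate mRNA set of 3 WT and 3 sgMyc libraries, edited with a guide against Myc. The labels give no control guide for WT cells, no clone and no separate cultures, so each p-value below measures only the spread between these libraries, which may be technical.

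N4-acetylcytidine is written by NAT10, an acetyltransferase of the nucleolus that modifies the small-subunit ribosomal RNA and, with an adaptor protein, transfer RNAs. Small nucleolar RNAs (snoRNAs), short RNAs that base-pair with ribosomal RNA precursors, guide many chemical modifications of other kinds there. Most snoRNAs are cut from introns of host genes, several of which make no protein of their own. Ribosomal protein mRNAs and several snoRNA host RNAs begin with a run of pyrimidines, the terminal oligopyrimidine tract, which ties their translation to growth signals.

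Among the exon peaks, 54 overlapped a small RNA of the RefSeq annotation (GRCm38.p6), 13 of them in peaks named for a protein-coding gene. A small RNA was taken as a noncoding entry of at most 400 bases, on either strand. The microRNA hairpin of Mir6516 lay wholly inside a peak, and it is shown because that peak holds a structured RNA within a longer host. The peak of Snhg20, a long noncoding snoRNA host, at chr11:117077235-117077472 covered the hairpin of Mir6516 at chr11:117077348-117077457 on the plus strand. It overlapped the peak of another small RNA, the scaRNA Gm26083, at chr11:117077243-117077435 on the same strand, which held 88 of the 110 hairpin bases. The enrichments were 1.62 for Snhg20 and 1.63 for Gm26083. Which of these RNAs gave the signal was not tested. In the hairpin below, capitals mark the mature arms, and in the mature RNAs capitals mark the seed, bases 2 to 8, which differed between the arms.
Mir6516 hairpin: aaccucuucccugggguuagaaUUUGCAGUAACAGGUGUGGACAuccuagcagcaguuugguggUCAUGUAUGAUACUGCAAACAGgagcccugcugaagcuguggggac
mmu-miR-6516-5p: uUUGCAGUaacagguguggaca
mmu-miR-6516-3p: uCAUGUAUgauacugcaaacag

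A set of 15 peaks covered the whole of the 50 bases that follow a RefSeq transcription start. Those of Gas5 and 2410006H16Rik, both noncoding transcripts that host snoRNAs, are shown because their levels are followed below, with the leading pyrimidines in capitals. The Gas5 window, at 1 of the 2 starts that RefSeq lists for the gene, is chr1:161035166-161035215, and that of 2410006H16Rik, its only listed start, is chr11:62602877-62602926, both on the plus strand.
Gas5: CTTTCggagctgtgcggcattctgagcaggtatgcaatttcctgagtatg
2410006H16Rik: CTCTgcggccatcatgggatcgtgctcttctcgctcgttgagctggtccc
A start of C followed by at least 4 pyrimidines, searched on the transcribed strand, was present in 2 of the 15 windows (13.3%), those of Gas5 and Rack1, and in 2.51% of 32851 RefSeq start windows of the same length. The triplet CCG, on the transcribed strand, was present in 9 of the 15 windows (60%) and in 42.4% of all windows, with a median GC content of 62% and 56%. These matches describe the letters only.

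Exon peaks were mostly a single block, which describes the annotated blocks of a peak and not the splicing of the RNA. Their summed block length had a median of 181 bases, the same as for peaks of the coding sequence (CDS) and for all peaks. Their genomic span had a median of 210 bases against 535 for CDS peaks. A single block made up 71.3% of them, against 37.7% of CDS, 60.2% of 5′ and 85.6% of 3′ untranslated region peaks. That share was 54.5% with a protein-coding host and 91.6% with another host. The shortest spans were those of the snoRNA Snora24 (104 bases) and the ribosomal RNA copy n-R5s156 (105 bases). The longest was that of Gm36569, an antisense RNA, with 23353 bases. Noncoding hosts made up 0.295% of the 1017 peaks of all other classes. Those classes are coding sequence, untranslated regions and start codons, which are parts of coding transcripts. The low share there therefore follows largely from how the classes are defined. Processed pseudogenes named 36 exon peaks, snoRNAs 22, antisense RNAs 20, long intergenic RNAs 18 and unconfirmed transcripts (TEC) 13.

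Enrichment over input, a fold value that the authors computed for each peak, as they did its log10 p, ran from 1.11 to 23.0 among exon peaks with a median of 1.96, against 1.72 for all other classes and 2.105 for peaks of 5′ untranslated regions. Peaks of protein-coding hosts had a median of 1.78 and the others 2.295. By host class the median was lowest for small nuclear RNAs (snRNAs; 1.675, 8 peaks) and highest for TEC transcripts (5.42, 13 peaks), with ribosomal protein mRNAs at 1.77 (41 peaks), long noncoding RNAs at 1.84 (27 peaks), snoRNAs and scaRNAs at 1.86 (23 peaks), pseudogenes at 2.53 (47 peaks), ribosomal RNAs at 2.98 (7 peaks) and antisense RNAs at 3.04 (20 peaks). The peaks of ribosomal protein mRNAs spanned only 1.18 to 2.53, whereas those of antisense RNAs ran from 1.51 to 12.6.

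**Figure D1:**
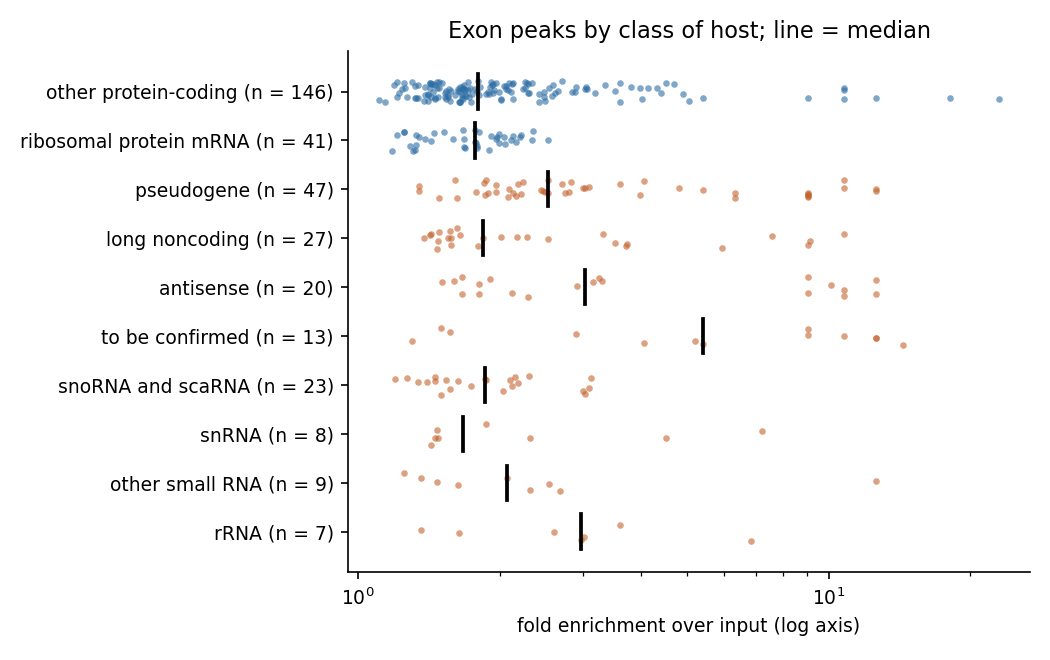
Fold enrichment over input (log axis) of each of the 341 exon peaks, 1 point per peak, by class of host, with a black line at the median; blue marks protein-coding and orange other hosts. Ribosomal protein peaks stay at or under 2.53, while the medians of antisense (3.04) and TEC (5.42) peaks lie above that of the other protein-coding peaks (1.795).

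The highest fold values and the strongest statistical support belonged to different peaks. Of 33 exon peaks with at least 8-fold enrichment, 26 had a noncoding host and 30 had a log10 p above -5. Identical pairs of values recurred among them: 7 peaks shared an enrichment of 12.6 with a log10 p of -2.44, 6 shared 9.03 with -1.64, and 5 shared 10.8 with -2.04. The peaks with the highest enrichment were those of Cltb (clathrin light chain B; 23.0, log10 p -18.4), Aatk (a kinase; 18.1, log10 p -3.67) and the TEC transcript Gm37914 (14.4, log10 p -2.84). They were followed by 8 peaks at 12.6, those of 4930528J11Rik, AC126549.1, Baz1b, Gm10221, Gm10420 (log10 p -3.83), Gm17017, Gm25315 and Gm37033, of which Baz1b and Gm25315 shared a locus. A log10 p below -100 was reached by 45 exon peaks, 23 of them noncoding, and by 112 of the 1017 other peaks.

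**Figure D2:**
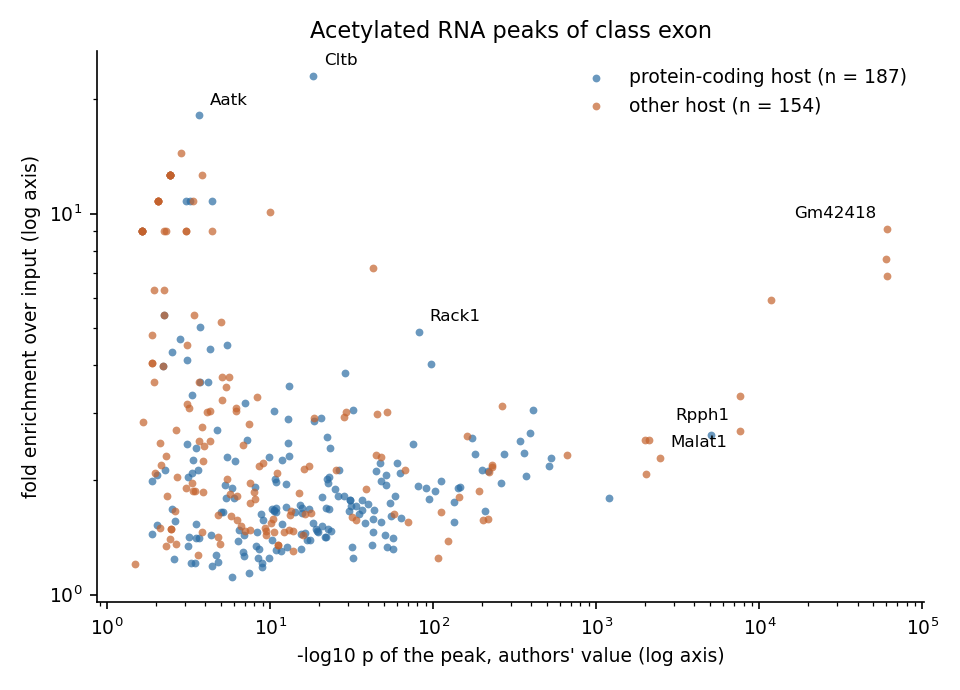
Fold enrichment over input against minus log10 p of the authors' peak test (both log axes) for the 341 exon peaks, blue for protein-coding and orange for other hosts. The peaks of highest enrichment, Cltb (23.0) and Aatk (18.1), sit far to the left of the ribosomal RNA-like locus of Gm42418, whose log10 p is -60300.

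The strongest exon peaks lay in a ribosomal RNA-like locus on chromosome 17. There the RefSeq annotation lists Rn18s-rs5 at chr17:39846354-39848202, typed as a pseudogene and named for the small-subunit ribosomal RNA. That ribosomal RNA is the known substrate of NAT10. Gm42418, typed as a long intergenic RNA, overlaps the entry in part. Its peak at chr17:39846958-39848788 (mm10, plus strand, 1831 bases) had an enrichment of 9.13 and a log10 p of -60300. The peak of CT010467.1, annotated as a ribosomal RNA, covered chr17:39846353-39848827 on the minus strand with 6.85 and -60300, and that of AY036118, also on the minus strand, had 7.6 and -59900. Gm26917, a noncoding gene just before them on the plus strand, carried peaks with 5.93 and 3.32. The peaks of Gm42418, CT010467.1 and AY036118 overlap one another, and the 2 of Gm26917 overlap each other, so they are not separate measurements of different RNAs, and the strand setting of the counting is not given in the sources used here. In the mitochondrial ribosomal RNAs, mt-Rnr1 had peaks of 1.36 and 2.98 and mt-Rnr2 of 1.64 and 2.61.

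Other strong peaks fell on abundant structured RNAs. Rpph1, the RNA subunit of RNase P, which trims transfer RNA precursors, had an enrichment of 2.69 with a log10 p of -7570. Rmrp, the RNA subunit of RNase MRP, which cuts ribosomal RNA precursors, had 2.55 with -2000. The signal recognition particle RNAs Rn7s1 and Rn7s2 had 2.32 and 2.07, and Rn7sk, the RNA that holds the elongation factor P-TEFb inactive, had 1.25 with -107. Malat1, a nuclear long noncoding RNA of speckles, carried 5 peaks between 1.38 and 2.29, with log10 p values down to -2470. Among snoRNAs, Snord17 had 3.13 and Snord118, the U8 RNA, 2.12.

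Several peaks with a protein-coding name overlapped a small RNA by position, on either strand, or shared a locus with another gene. Coding-host peaks overlapped, among others, Snora33 and Snord100 in Rps12, Snord15b in Rps3, Snord14e in Hspa8, Rmrp in Ccdc107 and Rpph1 in Ccnb1ip1. Some overlaps were partial, with 31 of 91 bases of Snord14e, 94 of 275 of Rmrp and 210 of 325 of Rpph1 in the peak. The Ccdc107 peak was on the plus strand and that of Rmrp on the minus strand. The 341 peaks fell into 316 loci, 14 of which held peaks of 2 gene names. In 10 pairs, overlapping peaks were assigned to opposite strands, and the ratio of their enrichments had a median of 1.17 and a maximum of 1.49. The antisense RNA Gm11131 (1.81) and H2-Q4 (1.65), a class I histocompatibility gene, formed such a pair. Only 6 hosts, all of them protein-coding, also had a peak of another class.

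Among coding hosts, the most peaks fell in Rack1, a scaffold protein of the small ribosomal subunit, with 4 peaks from 1.21 to 4.90. Hsp90b1, a chaperone of the endoplasmic reticulum, had 3 peaks between 1.61 and 3.05. Vim, the intermediate filament protein vimentin, had 3 peaks between 1.46 and 2.29, 2 of which overlapped. Rpl3 and Rpl13, of the large subunit, Rps12, of the small subunit, and the cytosolic chaperone Hspa8 had 3 each, all between 1.25 and 2.36.

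The table also gives a log2 difference between genotypes for each peak, whose order (WT over sgNAT10 or the reverse) is not stated, so its sign is not read as a gain or loss. It was positive for 205 exon peaks and negative for 136, from -4.32 (Gm43011, a TEC transcript) to 4.94 (Gm16982, an antisense RNA). The authors' false discovery rate was below 0.05 for 203 exon peaks (59.5%), against 65.3% of all peaks, and for 72.2% of peaks with a coding host against 44.2% of the others. At the chromosome 17 locus the difference was small in size: 0.0175 for Gm42418 and 0.00586 for CT010467.1. All 5 Malat1 peaks had a negative value (-0.364 to -0.0569), and all 4 Rack1 peaks did too (-0.532 to -0.222). The peaks of Snhg20 (1.99), Spp1 (1.98), Ptgs2 (1.55) and Anxa2 (1.15) had positive values. The most negative values after Gm43011 were those of Mrps10 (-3.96), Psmb8 (-3.91), Zfand3 (-3.86) and Timeless (-3.71). The largest after Gm16982 were those of Mvb12a (4.87), Gm9812 (4.68), Gm12903 (4.62) and D130007C19Rik (4.51), the last pair on opposite strands of a locus.

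The deposited read counts of the sgMyc set summed to between 51875052 and 65768024 per library. The sgNAT10 tables hold FPKM (fragments per kilobase of gene, scaled to the library's mapped fragments); whole reads worked back from them, which are lower bounds, summed to between 12027635 and 15724125 per mRNA library and between 1502182 and 3109835 per Ribo-seq library, with sgNAT10 replicate 2 the lowest in both. Nat10 itself had mRNA levels of 5.36 and 5.30 FPKM in WT and 3.59 and 3.95 FPKM in sgNAT10 libraries, a log2 fold change of -0.41 (SE 0.059, limma adjusted p = 0.00266). The mRNA level of a gene edited by a guide is a limited check of the label. Fibroblast markers summed to 22.1 to 22.8 FPKM in WT and 96.4 to 97.3 FPKM in sgNAT10 mRNA libraries, with Col1a1 and Dcn below 1 FPKM; of 5 tested, Thy1 (1.04 and 1.35 against 42.6 and 40.9 FPKM), Col1a2 (12.7 and 13.5 against 41.7 and 42.1 FPKM) and Pdgfra rose, and Col3a1 (-0.27) and Pdgfrb (-0.46) fell. The 2 epithelial markers listed, of 8 looked for, summed to at most 0.242 FPKM. None of the 7 T cell markers was listed, and 2 of 6 endothelial markers were, below 1 FPKM. The 3 macrophage markers listed summed to 5.49 to 6 FPKM in WT and 12.2 to 13.7 FPKM in sgNAT10 libraries; Cd14 rose (2.41 and 2.15 against 10.7 and 8.75 FPKM), and Cd68 (adjusted p = 0.838) and Csf1r (adjusted p = 0.125) were not called. The 13 mitochondrially encoded mRNAs summed to 17433 to 19730 FPKM in WT and 14726 to 16353 FPKM in sgNAT10 libraries. The part of these differences in the results below was not tested.

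In the mRNA libraries, 251 of the 293 hosts were listed and 229 passed the minimum mean of 1 FPKM and were tested. Of these, 68 rose and 79 fell in sgNAT10 cells (64.2%), against 63.3% of all 11735 genes tested (33.7% higher, 29.6% lower), a share near that of all genes; edgeR on reads recovered from the FPKM, chosen after seeing the data, called 67 higher and 86 lower of 226, against 66.6% of all genes. The median log2 fold change of the hosts was -0.01, and of all genes 0.01. Of 148 coding hosts, 47 rose and 53 fell (67.6%), and of 81 others 21 rose and 26 fell (58.0%). Levels are FPKM throughout. For the sgNAT10 libraries, fold changes are on the log2(FPKM + 1) scale and adjusted p-values are limma's over all genes tested, unless edgeR is named. For the sgMyc set both come from edgeR on counts.

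Ribosomal RNA-like hosts held the largest share of the signal. The nuclear and mitochondrial ribosomal RNA hosts with Gm42418 made up 21.1% to 25.2% of the summed mRNA FPKM. Gm42418 was at 85534 and 89650 FPKM in WT and 88823 and 92530 FPKM in sgNAT10 libraries, and the genotypes overlapped (log2 fold change 0.05, adjusted p = 0.490). CT010467.1 was at 20932 and 21379 FPKM in WT and 24008 and 23661 FPKM in sgNAT10 libraries, a rise of 0.17 (SE 0.041, adjusted p = 0.0158) that was not called without WT replicate 1 (adjusted p = 0.116) or WT replicate 2 (0.081). mt-Rnr2, the large mitochondrial ribosomal RNA, was at 1598 and 1716 FPKM in WT and rose to 2006 and 2175 FPKM (0.33, adjusted p = 0.00439). Both sgNAT10 libraries lay above both WT libraries for these last 2 genes. mt-Rnr1 was at 3416 and 3599 FPKM against 3462 and 3194 FPKM and did not pass the test (adjusted p = 0.254).

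Of 15 long noncoding hosts tested, snoRNA hosts among them, 8 fell and 1, Gm26917, rose in sgNAT10 cells (60%, against 63.3% of all genes, 29.6% lower), with a median log2 fold change of -0.38. The difference from all genes was not tested. The rise of Gm26917 (0.12, adjusted p = 0.0304) was not called without either WT library or sgNAT10 replicate 1. Gas5, whose introns encode many box C/D snoRNAs, was at 30.1 and 31.5 FPKM in WT and 22 and 23.6 FPKM in sgNAT10 libraries, and fell by 0.42 (SE 0.047, adjusted p = 0.00102). Snhg1 went from 14.9 and 13.8 FPKM to 9.81 and 8.43 FPKM and fell by 0.60 (SE 0.080, adjusted p = 0.00191). In each of these genes the 2 sgNAT10 libraries lay below both WT libraries. Snhg4 (7.62 and 7.70 against 4.23 and 3.41 FPKM), Snhg20 (3.37 and 2.97 against 1.85 and 1.69 FPKM), 2410006H16Rik (93.3 and 96.3 against 66.1 and 64.5 FPKM), AI506816 (142 and 144 against 98.9 and 101 FPKM), Gm26825 and Gm17300 also fell. Gm17300 fell the most, from 35.6 and 31.2 FPKM to 12.7 and 13.4 FPKM (log2 fold change -1.29, SE 0.069, adjusted p = 9.55e-05); its peak overlaps that of the snoRNA Snora73b on the other strand. In a wider list of 22 snoRNA host genes, of which Gas5, Snhg1, Snhg4 and Snhg20 have exon peaks, 12 fell and 2 rose of 17 tested, with a median of -0.51. Malat1 was at 291 and 331 FPKM in WT and 376 and 275 FPKM in sgNAT10 libraries, with overlapping values (0.05, adjusted p = 0.799).

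Small RNAs moved in both directions, and 1 library stood apart for them. Rn7sk was at 62.5 and 53.1 FPKM in WT and 92.4 and 166 FPKM in sgNAT10 libraries and rose by 1.09 (SE 0.27, adjusted p = 0.0188). The snRNA Gm22513 went from 4.18 and 5.31 FPKM to 14.9 and 39.7 FPKM (2.15, SE 0.44, adjusted p = 0.00898), and the snRNA Gm25360 from 0.956 and 1.43 FPKM to 5.17 and 8.11 FPKM (1.78, SE 0.21, adjusted p = 0.00123). In all 3, the second sgNAT10 library was the highest. That library also had the largest summed FPKM, 576764 against 461915 to 474612 in the other 3. Without it, the log2 fold change of Rn7sk was 0.67 (adjusted p = 0.00518), and without WT replicate 2 the call was lost (0.98, adjusted p = 0.0705). Of 4 snRNAs tested, 3 rose and none fell, and of 4 other small RNAs 3 rose and none fell. Each share was 75%, against 63.3% of all genes (33.7% higher). In each class limma gave 4 higher and 0 lower at an unadjusted p below 0.05, a level passed by 7906 of all 11735 genes. With edgeR on the recovered reads, 3 were called higher and 0 lower of 3 in each class, against 66.6% of all genes. The vault RNA Vaultrc5 was listed at 0 in both WT libraries and at 1.62 and 3.03 FPKM in sgNAT10 libraries. It passed the minimum mean of 1 FPKM only through the sgNAT10 libraries. Its rise, counted among the other small RNAs, is therefore no separate support. The 7 other small RNA hosts listed had a median WT level of 0.258 FPKM. Of 4 snoRNAs and scaRNAs tested, 2 fell and none rose (50%, against 63.3% of all genes, 29.6% lower). The counts were 2 lower and 0 higher both at an unadjusted p below 0.05 in limma and in edgeR on the recovered reads. Snora17 fell from 27.7 and 30.9 FPKM to 14.5 and 6.57 FPKM (-1.48, SE 0.33, adjusted p = 0.0124), and Snora73b from 19.4 and 16.2 FPKM to 8.21 and 11.8 FPKM (-0.79, SE 0.17, adjusted p = 0.0114). Snora57 (-0.20, adjusted p = 0.325) and Snord17 (0.28, adjusted p = 0.205) were not called.

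Of 12 antisense hosts tested, 8 rose, none fell and 4 were not called (66.7%, against 63.3% of all genes, 33.7% higher), with a median of 0.37. In limma, 8 had an unadjusted p below 0.05 with a positive sign and none with a negative sign, against 7906 of all 11735 genes in either direction. On the recovered reads, edgeR called 9 higher and 0 lower of 15, against 66.6% of all genes. Gm16229 was at 4.85 and 4.73 FPKM in WT and 13.1 and 15.2 FPKM in sgNAT10 libraries (1.38, SE 0.077, adjusted p = 1.08e-04). Gm15512 rose from 8.01 and 8.88 FPKM to 22.6 and 23.2 FPKM (1.34, SE 0.056, adjusted p = 4.85e-05), and Gm36569 from 20.2 and 17.6 FPKM to 39.6 and 40.1 FPKM (1.04, adjusted p = 1.70e-04). Each of these 3 was higher in both sgNAT10 libraries than in both WT libraries. Gm11131 rose from 2.19 and 1.95 FPKM to 3.96 and 4.09 FPKM, and H2-Q4 on the other strand from 6.86 and 7.28 FPKM to 14.3 and 15.2 FPKM. Without a stated strand setting, reads of an antisense gene and its partner cannot be told apart.

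Among pseudogene hosts, more fell than rose. Of 36 tested, 3 rose and 16 fell (52.8%), with a median of -0.17, against 63.3% of all genes (29.6% lower). With edgeR on the recovered reads, 0 were called higher and 16 lower of 37, against 66.6% of all genes. Of the 47 pseudogene peaks, 36 lay in genes annotated as processed pseudogenes, which are near copies of other mRNAs, so their values are uncertain. Gm15772, whose peak had an enrichment of 10.8, fell from 23.6 and 26.1 FPKM to 17.5 and 15.4 FPKM (-0.57, adjusted p = 0.00210). Gm10420 and Gm10243, with enrichments of 12.6 and 9.03, were not called (adjusted p = 0.883 and 0.431). The rise of Gm10221, among the peaks of highest enrichment (5.17 and 6.17 FPKM in WT, 7.70 and 7.62 FPKM in sgNAT10), was called by limma (0.38, adjusted p = 0.0102) and not by edgeR on recovered reads (adjusted p = 0.101).

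Ribosomal protein mRNAs with exon peaks were mostly lower in sgNAT10 cells. Of 27 tested, 2 rose and 15 fell (63.0%), with a median of -0.12, against 63.3% of all genes (29.6% lower). Among 54 ribosomal protein genes without an exon peak, 3 rose and 40 fell (79.6%), with a median of -0.28. The difference between these groups was not tested. Rpl3 fell from 444 and 450 FPKM to 316 and 316 FPKM (-0.50, SE 0.025, adjusted p = 8.12e-05), and Rpl13a, also of the large subunit, from 38.2 and 39.4 FPKM to 19 and 19.6 FPKM (-0.97, SE 0.036, adjusted p = 3.65e-05). Both lay lower in both sgNAT10 libraries than in both WT libraries. Rps12 was called higher, by 0.13 (adjusted p = 0.0190), a small rise that was not called after median scaling (adjusted p = 0.098) or without WT replicate 1 (0.0688) or 2 (0.0839).

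The largest falls among coding hosts outside the ribosomal proteins were in Ndrg1, Rack1 and Spns1. Ndrg1, a stress- and hypoxia-responsive gene, fell from 22.9 and 25.2 FPKM to 7.76 and 8.78 FPKM (-1.44, SE 0.074, adjusted p = 8.44e-05). Rack1 fell from 256 and 253 FPKM to 121 and 117 FPKM (-1.09, SE 0.030, adjusted p = 1.71e-05). Spns1, a lysosomal lipid transporter, fell by 0.82 (adjusted p = 5.15e-04). Of 10 chaperone and folding hosts, 6 fell and 2 rose, with Hsp90b1 falling from 290 and 295 FPKM to 214 and 215 FPKM (-0.45, adjusted p = 1.22e-04) and Hspa8 by 0.36. Of 16 RNA processing hosts 8 fell and 1 rose, and of 7 translation hosts 4 fell and 2 rose. These protein groups, and that of the cytoskeleton below, were formed after the values were seen, and their counts stand beside the 33.7% of all genes called higher and 29.6% called lower.

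Among coding hosts, the largest rises were in Ptgs2, Spp1, Gpc1 and Cltb. Ptgs2, the inducible cyclooxygenase of prostaglandin synthesis, was at 1.41 and 1.56 FPKM in WT and 48.3 and 48.5 FPKM in sgNAT10 libraries (4.32, SE 0.047, adjusted p = 4.07e-06). Spp1, the secreted phosphoprotein osteopontin, rose from 57.1 and 56.6 FPKM to 521 and 503 FPKM (3.15, SE 0.030, adjusted p = 2.95e-06). Gpc1, a heparan sulfate proteoglycan, rose from 13.6 and 14.4 FPKM to 53.2 and 52.5 FPKM (1.84, SE 0.039, adjusted p = 9.74e-06). In each the libraries of a genotype lay close together and did not overlap with those of the other. Cltb, the host of the peak of highest enrichment, rose from 2.98 and 3.17 FPKM to 11.3 and 12.4 FPKM (1.66, adjusted p = 3.65e-05). Of 9 cytoskeleton hosts 6 rose and 1 fell; Vim rose from 248 and 255 FPKM to 444 and 421 FPKM (0.78, SE 0.037, adjusted p = 6.74e-05).

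Genes of related pathways gave mixed counts in sgNAT10 mRNA, where 63.3% of all genes were called. Of 9 genes of the RNA acetylation machinery, which includes the box C/D snoRNP protein Nop56 as the only host of an exon peak, 2 rose and 4 fell; Nop56 was at 91.0 and 92.5 FPKM in WT and 93.9 and 89.7 FPKM in sgNAT10 libraries (adjusted p = 0.994). Of 24 genes of the RNA exosome and nonsense-mediated decay, with the hosts Exosc2 and Upf3a, 5 rose and 9 fell. Of 7 nuclear and imprinted long noncoding RNAs 2 rose and 2 fell.

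In the Ribo-seq libraries, 178 hosts were tested and 11 were called (6.18%), 8 higher and 3 lower, against 3.09% of all 9707 genes tested (1.81% higher, 1.28% lower). The higher hosts were Ptgs2, Spp1, Gpc1, Dlk1, Cebpb, Vim, Myl6 and Anxa2, and the lower ones Atpif1, Gm42418 and Tmsb10. All of them except Gm42418 had an mRNA change called in the same direction. At an unadjusted p below 0.05, 31 were higher and 23 lower of 178, against 2009 of all 9707 genes in either direction. Chosen after seeing the data, edgeR on the recovered reads called 17 higher and 12 lower of 162, against 7.55% of all genes. Hosts had higher footprint levels, with a WT median of 32.2 FPKM against 6.33 FPKM for all genes listed. With a minimum mean of 5 FPKM, limma called 14 of 155 hosts (9.03%), against 5.70% of 6214 genes. The difference between these shares was not tested. Leaving out any 1 of the 4 libraries left at most 2 hosts called, Ptgs2 and Spp1 without WT replicate 1, Spp1 without WT replicate 2 and none without either sgNAT10 library.

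In footprints, Ptgs2 was at 5.68 and 2.85 FPKM in WT and 99.8 and 112 FPKM in sgNAT10 libraries (4.4, SE 0.31, adjusted p = 0.00329). Spp1 rose from 419 and 455 FPKM to 3399 and 3466 FPKM (2.97, SE 0.098, adjusted p = 4.82e-04), and Vim from 671 and 664 FPKM to 1294 and 1335 FPKM (0.98, SE 0.095, adjusted p = 0.00914). Both sgNAT10 libraries lay above both WT libraries in all 3. Dlk1, a membrane protein of the Notch ligand family, rose from 91.4 and 71.8 FPKM to 185 and 191 FPKM (1.20, adjusted p = 0.0248), and Cebpb, a transcription factor of inflammation, from 78.5 and 69.5 FPKM to 180 and 151 FPKM (1.15, adjusted p = 0.0248). Atpif1, the inhibitor of the mitochondrial ATP synthase, fell from 317 and 417 FPKM to 168 and 136 FPKM (-1.26, SE 0.19, adjusted p = 0.0272). Tmsb10, an actin monomer-binding peptide, fell from 192 and 200 FPKM to 117 and 106 FPKM (-0.81, adjusted p = 0.0401). None of the 27 ribosomal protein hosts was called in limma. At an unadjusted p below 0.05, 8 were higher and 1 lower, against 2009 of all 9707 genes in either direction. On the recovered reads, edgeR called 2 higher and 0 lower, against 7.55% of all genes.

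Ribosomal RNA hosts with Gm42418 made up 8.45% to 16.1% of the summed footprint FPKM, out of 16.6% to 22.5% for all hosts. Gm42418 was at 18360 and 18647 FPKM in WT and 6830 and 8918 FPKM in sgNAT10 libraries (-1.25, SE 0.13, adjusted p = 0.0127), while its mRNA level did not pass the test. Its footprint fall was not called after quantile normalization or without the trend in the variance. For ribosomal RNA-like hosts a footprint value is a level of reads in the Ribo-seq libraries and is not read as translation. mt-Rnr2 was at 31547 and 18449 FPKM in WT against 17718 and 21624 FPKM, and mt-Rnr1 at 6977 and 4579 FPKM against 2809 and 3379 FPKM (adjusted p = 0.0914). The genotypes overlapped for mt-Rnr2 and not for mt-Rnr1. Beside these, the mitochondrially encoded mRNAs summed to 1069 to 1121 FPKM in WT and 168 to 262 FPKM in sgNAT10 footprint libraries, and of 7 tested 6 fell. Of 5 fibroblast markers tested in footprints, 3 rose. The part of these markers in the footprint results was not tested.

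**Figure D3:**
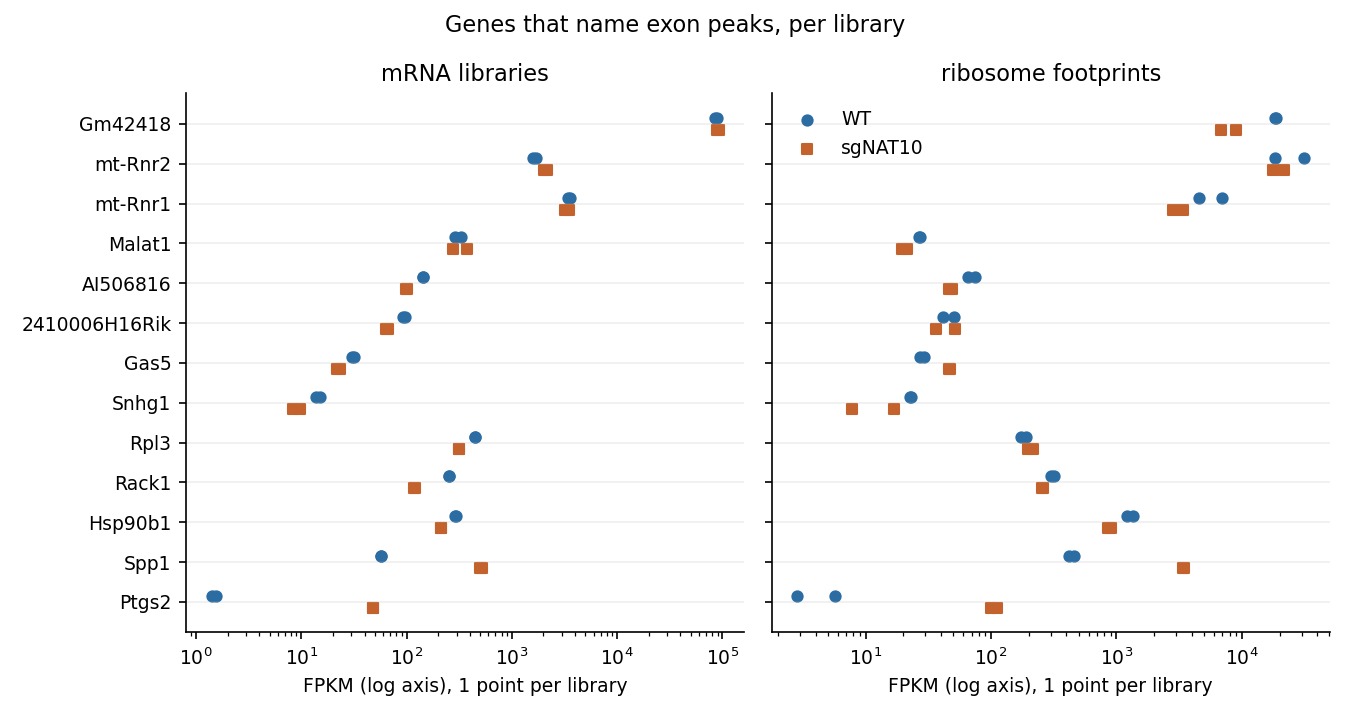
Levels in FPKM (log axis) of 13 hosts in each mRNA (left) and Ribo-seq (right) library, 1 point per library, WT in blue circles and sgNAT10 in orange squares. Ptgs2 and Spp1 are higher in both assays in sgNAT10 libraries, while the ribosomal RNA-like Gm42418 is lower in Ribo-seq reads only (6830 and 8918 FPKM against 18360 and 18647 FPKM), which is not read as translation.

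As a description, the ratio of footprint to mRNA FPKM was taken in WT for hosts with a mean WT mRNA level of at least 1 FPKM. It had a median of 1.49 over 148 coding hosts and 0.328 over 24 others, 5 of which were under 0.1. High ratios occurred in both classes: 278 and 144 for Rpph1, 162 and 172 for the snRNA Gm25360 and 19.7 and 10.8 for mt-Rnr2, and 221 and 192 for the histone gene Hist1h1d. Those of Rpph1 and Gm25360 rest on mRNA levels near the floor. Rpph1 mRNA was at 0.143 and 0.341 FPKM in WT, so this gene is outside the medians, and Gm25360 was at 0.956 and 1.43 FPKM. Ribosomal protein hosts had a median of 0.519, long noncoding hosts 0.485 (9 genes) and pseudogenes 0.106 (7 genes). Malat1, a nuclear RNA, had ratios of 0.0917 and 0.0822 in WT libraries and 0.0515 and 0.0773 in sgNAT10 libraries. Gas5 had ratios of 0.969 and 0.860 in WT and 2.12 and 1.97 in sgNAT10 libraries, since its mRNA level fell while its footprints were at 29.2 and 27.1 FPKM in WT and 46.8 and 46.4 FPKM in sgNAT10 libraries (0.71, SE 0.18, adjusted p = 0.107, not called). Rack1 had ratios of 1.25 and 1.20 in WT and 2.16 and 2.18 in sgNAT10 libraries, with footprints at 321 and 304 against 262 and 254 FPKM (adjusted p = 0.257). Libraries of the 2 assays carry different normalizations, so a ratio has no absolute meaning, and its change between genotypes was not tested.

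**Figure D4:**
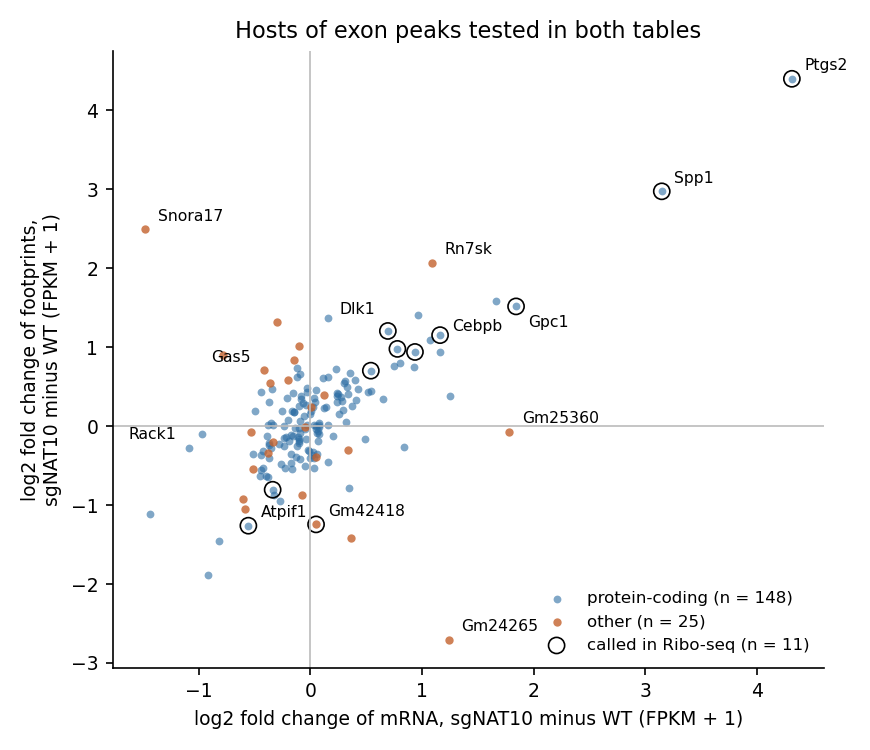
Log2 fold change of footprints against that of mRNA, sgNAT10 minus WT on the log2(FPKM + 1) scale, for the 173 hosts tested in both tables, blue for 148 coding and orange for 25 other hosts, with black rings around the 11 called in Ribo-seq. Ptgs2 and Spp1 lie at the upper right, and the ribosomal RNA-like Gm42418 is called lower in Ribo-seq reads with an mRNA change of 0.05.

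In the sgMyc set, 257 hosts were listed and 226 tested in edgeR, of which 17 rose and 13 fell (13.3%), against 16% of all 16794 genes tested (7.11% higher, 8.86% lower); DESeq2 called 23 higher and 15 lower of 235, against 18% of all genes. The sgMyc replicate 3 library stood apart: without it 48 hosts rose and 99 fell, 147 of 226, against 53.6% of all genes. Of the 13 mitochondrially encoded mRNAs 11 fell, with sums of 27491 to 30265 FPKM in WT and 17449 to 20007 FPKM in sgMyc libraries. Of 8 fibroblast markers 3 rose, with sums of 120 to 139 FPKM in WT and 178 to 456 FPKM in sgMyc libraries and Col1a1 below 1 FPKM, and 1 of 3 macrophage markers, Cd14, rose. Their part in the results of this set was not tested. Values in this paragraph and the next are given for each library, WT first. Ptgs2 was at 18.4, 19.4 and 16.5 FPKM in WT and 69.8, 68.5 and 59.4 FPKM in sgMyc libraries (log2 fold change 1.86, SE 0.095, adjusted p = 4.26e-04). Spp1 was at 639, 660 and 556 FPKM against 3348, 3245 and 1023 FPKM (2.03, SE 0.42, adjusted p = 0.0253), and Rn7sk at 3.47, 4.49 and 4.16 FPKM against 11.9, 10.4 and 8.08 FPKM (1.32, SE 0.22, adjusted p = 0.0119). All 3 sgMyc libraries exceeded all WT libraries in these genes, with replicate 3 the lowest of the 3. The uncharacterised gene AW011738 rose from at most 0.410 FPKM in WT to 7.46 and 7.69 FPKM in replicates 1 and 2 and 0.682 FPKM in replicate 3 (adjusted p = 0.0306). Gm42793, a TEC transcript that overlaps Spp1, rose by 2.43 (adjusted p = 0.0348). The other small RNA hosts Rpph1 (1.53, 1.57 and 2.10 FPKM against 3.87, 3.08 and 3.73 FPKM; adjusted p = 0.0450), Rn7s1 and Rn7s2 also rose, 4 of 5 tested with Rn7sk, though Rpph1 was called in only 1 of the 6 fits that left out a library and Rn7s1 and Rn7s2 in 2 each.

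Among hosts that fell, Rack1 was at 298, 294 and 303 FPKM in WT and 148, 146 and 169 FPKM in sgMyc libraries (-0.95, SE 0.096, adjusted p = 0.00273). Ndrg1 was at 39.4, 38.3 and 42.6 FPKM against 21.1, 20.4 and 15.8 FPKM (-1.07, SE 0.12, adjusted p = 0.00317), and Fosl1, an AP-1 transcription factor, at 134, 119 and 134 FPKM against 44.7, 45.7 and 80.0 FPKM (-1.18, SE 0.25, adjusted p = 0.0267). The groups did not overlap in these 3. Hsp90b1 fell by 0.95 (adjusted p = 0.0186) and Tmsb10 by 0.76 (adjusted p = 0.00949). Of the noncoding hosts, 2410006H16Rik fell from 19.2, 18.1 and 21.4 FPKM to 12.8, 12.1 and 11.8 FPKM (-0.68, SE 0.094, adjusted p = 0.00672). Gas5 was at 34.2, 32.9 and 33.4 FPKM against 18.4, 18.6 and 35.2 FPKM, and Snhg1 at 24.4, 24.9 and 25.1 FPKM against 9.60, 11.2 and 20.8 FPKM. Neither was called, and replicate 3 lay near or inside the WT range for Gas5. Ptgs2, Ndrg1, Rack1 and 2410006H16Rik were the named genes called in every fit that left out 1 library; Spp1, AW011738, Gm42793, Fosl1 and Hsp90b1 were called in only 1 of the 6 such fits, that without sgMyc replicate 3.

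**Figure D5:**
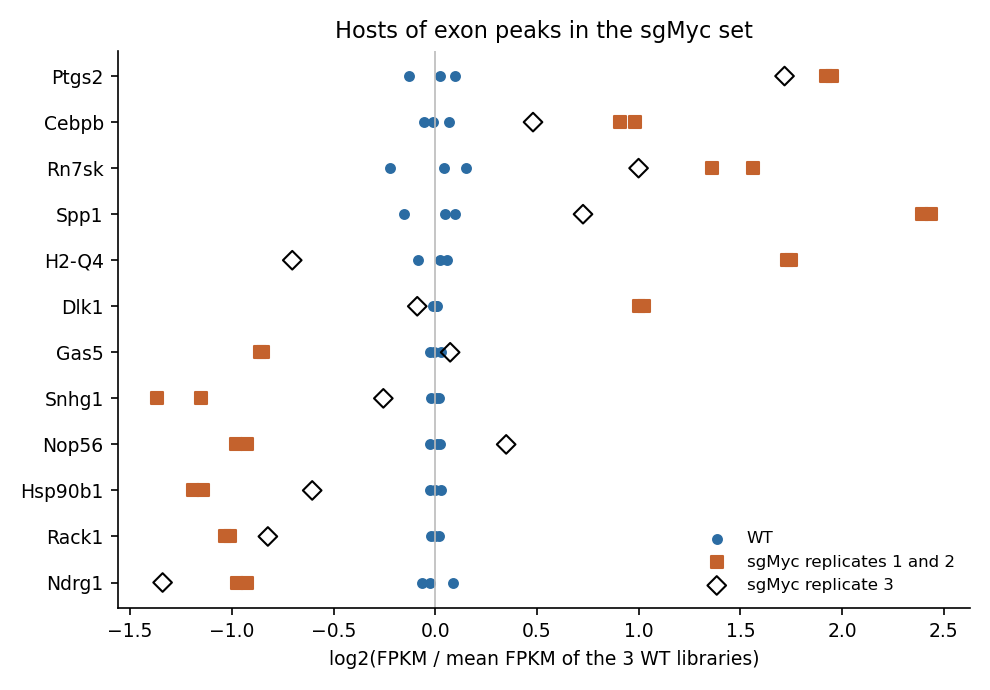
Log2 ratio of each library's FPKM to the mean of the 3 WT libraries for 12 hosts in the sgMyc set, with WT as blue circles, sgMyc replicates 1 and 2 as orange squares and sgMyc replicate 3 as open diamonds. Replicate 3 departs from replicates 1 and 2 for Gas5, Nop56, Dlk1 and H2-Q4, and lies with them for Rack1 and Ndrg1.

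Of 204 hosts tested in both mRNA comparisons, 20 were called in both (9.80%), against 1444 of 10867 genes (13.3%). Of those 1444 genes, 1259 changed in the same direction in both, so agreement in direction is not particular to the hosts listed next. Ptgs2, Spp1, Cebpb, Rn7sk, Bhlhb9, Igfbp4, Lsp1 and Rhobtb2 were higher in both sgNAT10 and sgMyc cells, and Rack1, Ndrg1, Hsp90b1, Tmsb10, Rpl3, 2410006H16Rik, Anp32e and Gm15772 were lower in both. Vim, Anxa2 and Pabpc1 were higher in sgNAT10 and lower in sgMyc cells, with Vim at 0.78 in the first and -0.35 (adjusted p = 0.0324) in the second, and Mvb12a was lower in sgNAT10 and higher in sgMyc cells. The sets have their own WT libraries, and their levels differ between the WT groups, as with Ptgs2 at 1.41 and 1.56 FPKM in the first and 16.5 to 19.4 FPKM in the second. The fold changes come from different fits, limma on log2(FPKM + 1) for sgNAT10 and edgeR on counts for sgMyc. The difference between the 2 comparisons was not tested.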

How the data were processed

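The members and gene lists were chosen with earlier results of these data known. Exon peaks were taken by their class from the deposited table, whose fold enrichment ratio, log2 difference, p-value and log10 score per peak are the authors' values (mm10 coordinates; peak caller not given in the sources used here). Per the labels and the submitters' processing notes, reads were handled with FastQC, Trim Galore, Bowtie2 and featureCounts, without versions; the authors deposited FPKM for the sgNAT10 tables, and counts with FPKM for the sgMyc table.

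limma 3.58.1 (trended variance) was fitted on log2(FPKM + 1), 2 against 2 libraries, where the mean FPKM reached 1. edgeR 4.0.16 quasi-likelihood with TMM and filterByExpr was fitted on the deposited counts of the sgMyc set. DESeq2 1.42.0 was an alternative. P-values were Benjamini-Hochberg adjusted over all genes tested, with a threshold of 0.05. Hosts were matched by symbol. Whole reads were recovered from FPKM ratios (98.0% of mRNA and 97.6% of Ribo-seq genes came out whole, with a relative tolerance of 2e-12); this setting was revised after seeing results, and the earlier one is among the alternatives. The limma fits and the edgeR fit of the sgMyc counts were tested on simulated data. DESeq2, the read recovery and edgeR on recovered reads were not. Genes named were those of the 10 peaks of highest enrichment, the 5 largest and 5 smallest differences, the extremes of length, up to 8 hosts with the most peaks, up to 12 noncoding hosts by enrichment and 6 by footprints, and the largest changes that passed each test, plus genes added after their values were seen (such as Gas5, Snhg1, Snhg20 and Cebpb in the sgMyc set). Intervals and depth cover counting error only. Some items are not reported here.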

Additional observations from a re-analysis of the deposited data

How the results depend on the processing

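The number of hosts called in sgNAT10 mRNA was 147, and stayed between 122 and 155 over all alternatives, 145 with the replicate block. In Ribo-seq it was 11, and 2 without a trend in the variance, 29 with edgeR on recovered reads, 28 with edgeR at the first recovery setting, 9 with the replicate block and 0 to 2 when leaving out each library. Of all genes, 300 were called in Ribo-seq, and 87, 725, 727 and 0 to 9 under the same alternatives. In the sgMyc set 30 hosts were called, 17 without a filter on low counts, 9 with the replicate block, and 4 to 147 when leaving out each library, where 147 was without sgMyc replicate 3 and 4 without WT replicate 1 or 3. Of all genes 2682 were called there, 1082 with the replicate block and 680 to 9368 without 1 library. The replicate numbers did not pair the libraries: correlations of same-numbered deviations were 0.0079 in sgNAT10 mRNA, 0.0245 in Ribo-seq and between -0.0078 and 0.0039 in the sgMyc set. The median enrichment of exon peaks was 1.96, and 1.81 for those with a difference at a false discovery rate below 0.05. Rps12, CT010467.1 and Gm26917 in sgNAT10 mRNA were not called after median scaling. The causes of these changes were not tested. With 1 precipitate per genotype, no peak value could be tested.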

Other observations

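The sign of the peak difference, whose genotype order is not stated, was set beside the mRNA change of the host. Hosts with only positive differences had 43 higher and 49 lower of 135 tested in sgNAT10 mRNA, with a median log2 fold change of -0.00035. Hosts with only negative differences had 22 higher and 25 lower of 82 tested, with a median of -0.03. Hosts with both signs had 3 higher and 5 lower of 12 tested. In Ribo-seq, hosts with only positive differences had 6 higher and 1 lower of 103 tested (median -0.01), those with only negative differences 2 lower of 63 (median 0.01), and those with both signs 2 higher of 12 (median 0.19). Over all genes tested, 33.7% were called higher and 29.6% lower in sgNAT10 mRNA, and 1.81% higher and 1.28% lower in Ribo-seq. The counts of these host groups were not tested against each other or against all genes.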
